A study of Mus musculus with 2 samples.

Results

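Gpnmb-positive (Gpnmb+) macrophages of allergic mouse ear skin were examined as 50 single cells among 8953 cell barcodes. They were chosen from their own transcripts, in CPM, the reads of a gene divided by all reads of the cell and multiplied by 1000000. A barcode had at most 20% mitochondrial reads and at least 200 genes. The 4 macrophage genes Csf1r, Cd68, Ms4a6c and Ms4a7 summed to at least 300 CPM, the fibroblast gene Col1a1 stayed under 3000 CPM and the neutrophil genes S100a8 and S100a9 stayed under 5000 CPM together. These limits left 1648 macrophage-gate cells, of which 50 had at least 50 CPM of Gpnmb and 1598 had less (Gpnmb-low cells). The levels of Gpnmb and of the other gate genes are therefore descriptions of the choice and carry no test.

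Cells came from ear skin of young adult male BALB/c mice, which were wild-type (WT) or lacked Ccr2 through the Ccr2tm1Mae allele (Ccr2-/-). All mice had been given 300 µg of an IgE antibody against the hapten TNP and then 10 µg of TNP-coupled ovalbumin in the ear, which starts IgE-mediated chronic allergic inflammation, and were sampled at day 3 or day 5. Cells of the 4 combinations of genotype and day were stained with hashtag antibodies and sequenced as 1 mixed cDNA library with 1 hashtag library, so each combination was 1 pool without a replicate. The number of mice in a pool was not stated in the sources used here. Ccr2 is missing from every cell type of the Ccr2-/- mice, monocytes and lymphocytes alike.

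GPNMB is a transmembrane glycoprotein that macrophages make when they take up large amounts of lipid or cell debris. It is found with lysosomal enzymes and with the lipid receptor TREM2 in foamy, tumour-associated and wound macrophages. In skin it is also a protein of melanocytes, and fibroblasts can make it. CCR2 is the chemokine receptor by which classical monocytes leave the bone marrow and enter inflamed tissue, where they can become macrophages.

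Of the 8359 barcodes within the mitochondrial and gene limits, 7500 were given to a pool, and their depth had a median of 32594 reads. Counts were reads and not molecules, so every interval and floor given here covers counting error only and PCR copies are not told from separate molecules. The Gpnmb+ cells held 3873 to 212066 reads, with a median of 58550.5 reads and 3899.5 genes. In a cell of under 20000 reads a single Gpnmb read already exceeds 50 CPM. This applied to 12 of the 50 cells, and 3 of the 50 had 1 Gpnmb read.

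The label of these cells as late monocyte-derived macrophages was held against their markers. In the 37 WT cells, 9 of 9 macrophage markers had reads, and the sum of these markers in each cell was at least 1000 CPM in 37 of 37. WT Gpnmb-low cells had summed macrophage markers of 5294 and 6808 CPM at day 3 and day 5. These markers therefore do not show cells to be late or monocyte-derived. The paper assigns high Ccr2 and surface PD-L2 to its late cells. For Pdcd1lg2, the gene of PD-L2, it reports a rise in early cells and a gradual fall thereafter. Low Pdcd1lg2 RNA therefore does not set cells apart from its late cells. Over both days, Pdcd1lg2 had 30.8 CPM in WT Gpnmb+ and 60.9 CPM in Gpnmb-low cells, without a call. It was read in 7 of the 37 cells. Ccr2 had 263 and 831 CPM. The paper also gives late cells higher Apoe, Abca1, Abcg1 and Trem2 than monocytes and early cells. Apoe, Abca1 and Abcg1 had log2 fold changes of 0.62, 0.79 and -0.51 over Gpnmb-low cells, without a call. Trem2 is a label marker. The label was thus not settled for the WT cells. Markers of other cells were read at lower sums. In the WT cells 6 of 7 neutrophil markers had reads (Ly6g at 0), with sums of 109 and 230.3 CPM at day 3 and day 5. Reads were also found for 2 of 4 eosinophil markers (Siglecf and Epx at 0), 3 of 6 melanocyte markers (Pmel, Tyrp1 and Sox10 at 0) and 4 of 8 T or NK cell markers (Cd3g, Cd5, Ncr1 and Klrb1c at 0), each summing to at most 5.59 CPM in either pool. The 7 fibroblast markers were all read and reached 1000 CPM together in 14 of the 37 cells. The 8 Ccr2-/- cells did not bear out the label. They had no read of C1qa, Trem2, Spp1, Cadm1, Atp6v0d2 or Cd36, and 1 of the 8 had a read of Adgre1, the gene of the macrophage marker F4/80. The summed macrophage markers were 2233 and 1574 CPM in the Ccr2-/- pools, against 4724 and 6623 CPM in WT Gpnmb+ cells and 5424 and 4876 CPM in Ccr2-/- Gpnmb-low cells. The Ccr2-/- cells are accordingly called by the rule alone. Their median depth was 16589 reads, against 77937 in the 37 WT cells. How far this lower depth left genes without a read was not tested.

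Gpnmb+ cells were counted in each pool, which bears on whether they arise with time and depend on CCR2. In WT they numbered 8 of 587 macrophage-gate cells at day 3, or 1.36% (95% Clopper-Pearson interval 0.590 to 2.67), and 29 of 529 at day 5, or 5.48% (3.70 to 7.78). In Ccr2-/- they numbered 5 of 225 at day 3, or 2.22% (0.725 to 5.11), and 3 of 221 at day 5, or 1.36% (0.281 to 3.92). WT day 5 was the highest pool. Its interval did not overlap that of WT day 3, but both are single pools and the intervals cover counting error only. The intervals overlapped with cells chosen at 10000 reads, at 2.24% (1.16 to 3.87) and 4.83% (3.12 to 7.10), and with Gpnmb at 100 CPM or more, at 1.02% (0.376 to 2.21) and 3.59% (2.18 to 5.55). Averaged over both days, WT had 3.42% and Ccr2-/- 1.79%. The gap of 1.63 points gave p = 0.667 when the pools were permuted exactly (two-sided). Without the WT day 5 pool the difference was -0.427 points.

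As a share of all cells of a pool, Gpnmb+ cells were 0.496% (0.214 to 0.975) of WT day 3 and 2.66% (1.79 to 3.795) of WT day 5. They were 0.220% (0.0714 to 0.512) of Ccr2-/- day 3 and 0.119% (0.0245 to 0.347) of Ccr2-/- day 5. Both WT pools lay above both Ccr2-/- pools, with means of 1.58% and 0.169%, and permuting the pools exactly (two-sided) gave p = 0.333. With 2 pools a genotype no smaller p can be reached. The macrophage gate itself held 36.4% and 48.5% of WT cells at days 3 and 5, and 9.89% and 8.76% of Ccr2-/- cells.

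**Figure D1:**
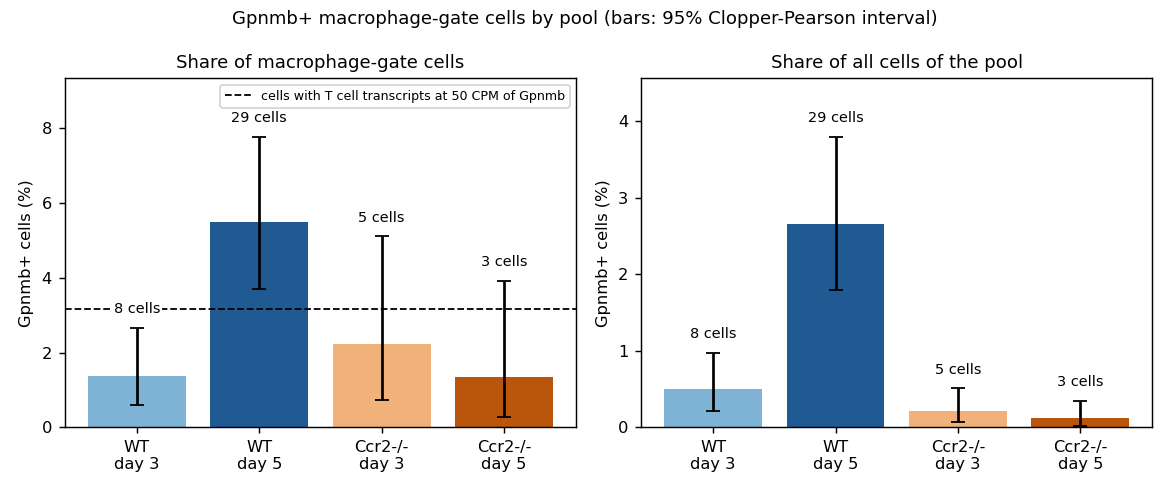
Gpnmb+ cells as a percentage of macrophage-gate cells (left) and of all cells (right) in each pool, with 95% Clopper-Pearson intervals and the number of cells above each bar. The dashed line is the 3.16% of cells with T cell transcripts that reached 50 CPM of Gpnmb. These cells had no limit on Col1a1, S100a8 or S100a9 and can hold mixed barcodes. WT day 5, at 5.48%, is the highest pool on the left, and the Ccr2-/- bars end below the line while their intervals cross it.

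Gpnmb reads were also found outside the macrophage gate. Of 2271 cells with at least 3000 CPM of Col1a1, which are fibroblasts by that gene, 657 or 28.9% (27.1 to 30.8) reached 50 CPM of Gpnmb at a median of 84604 reads per cell. A second group was 253 cells outside the gate with at least 300 CPM of the T cell genes Cd3d, Cd3e and Cd3g. Of these, 8 or 3.16% (1.38 to 6.14) did so at a median of 14790 reads. No limit on Col1a1, S100a8 or S100a9 was set for this group. It can hold barcodes mixed with other cells and is not a clean background. In the macrophage gate these values were 45 of 1562 cells with a pool, or 2.88% (2.11 to 3.84), at a median of 45146.5 reads. After each cell was thinned to 10000 reads, which left out 166 shallower macrophage-gate cells, 3.48% of WT macrophage-gate cells had a Gpnmb read (2.45 to 4.79). The share was 1.38% (0.450 to 3.19) in Ccr2-/- and 2.65% (0.864 to 6.07) in the cells with T cell genes. The Ccr2-/- share lay below that of the cells with T cell genes and the WT share above it, and both intervals overlapped that of the T cell genes. The shares alone therefore told neither genotype from this level, which can itself come from mixed barcodes. Single cells reached high values in each, up to 2262 CPM in Ccr2-/- macrophage-gate cells and 6208 CPM in the cells with T cell genes. The latter was also the highest value among cells with at least 5000 CPM of S100a8 and S100a9 together. Cells with 200 CPM or more were 1.88% of WT macrophage-gate cells and 1.19% of the cells with T cell genes.

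Gpnmb itself lies on chromosome 6 (49036546 to 49070929, plus strand, GRCm38). Its level in the Gpnmb+ cells ran from 68.5 to 4002 CPM in WT day 3, with a median of 701 CPM, and from 54.0 to 1297 CPM in WT day 5, with a median of 201 CPM. In Ccr2-/- it ran from 51.4 to 2262 CPM at day 3 and from 69.4 to 693 CPM at day 5, at median depths of 19474 and 14409 reads per cell against 59465 and 79386 in the WT pools. Most macrophage-gate cells had none, since 1440 of the 1562 cells with a pool had no Gpnmb read and 77 had reads below the limit. Just inside the limit were 4 cells of 51.4 to 59.4 CPM, of which 3 had Trem2 and 1 had Mmp12. Just outside it were 4 cells of 41.0 to 47.4 CPM, of which 2 had Trem2 and 1 had Mmp12.

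The 4 other genes by which these macrophages were labelled had been picked on the same cells, so their levels are described and nothing is drawn from their test. Trem2 encodes a lipid receptor of macrophages. It was read in 29 of the 37 WT cells, at 327 CPM in WT day 3 and 467 CPM in WT day 5, against 86.7 and 238 CPM in Gpnmb-low cells of the same pools. Mmp12, macrophage elastase, was at 296 and 1484 CPM against 20.9 and 31.8 CPM. It was read in 12 of the 37 cells, and 1 cell of WT day 5 held 81.5% of its reads. Spp1, the secreted phosphoprotein osteopontin, was at 210 CPM (176 to 248) and 255 CPM against 48.0 and 87.1 CPM, with 10 of 37 cells and 98.6% of the day 3 reads in 1 cell. Cadm1, a cell adhesion molecule, was at 205 and 107.9 CPM against 10.8 and 20.05 CPM, in 15 of 37 cells. Each of these 4 genes was higher in Gpnmb+ than in Gpnmb-low cells in both WT pools, but few cells carried the set together. Of the 37 WT cells 1 had a read of all 4 genes, 9 had 3 of them, 12 had 2, 11 had 1 and 4 had none. Among 1079 WT Gpnmb-low cells, 0.371% had all 4 and 40.7% had none. In Ccr2-/-, Trem2, Spp1 and Cadm1 were at 0 reads, where 3 reads would be 22.0 CPM at day 3 and 76.2 CPM at day 5, and the 169 Mmp12 reads of day 3 came from 1 cell.

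**Figure D2:**
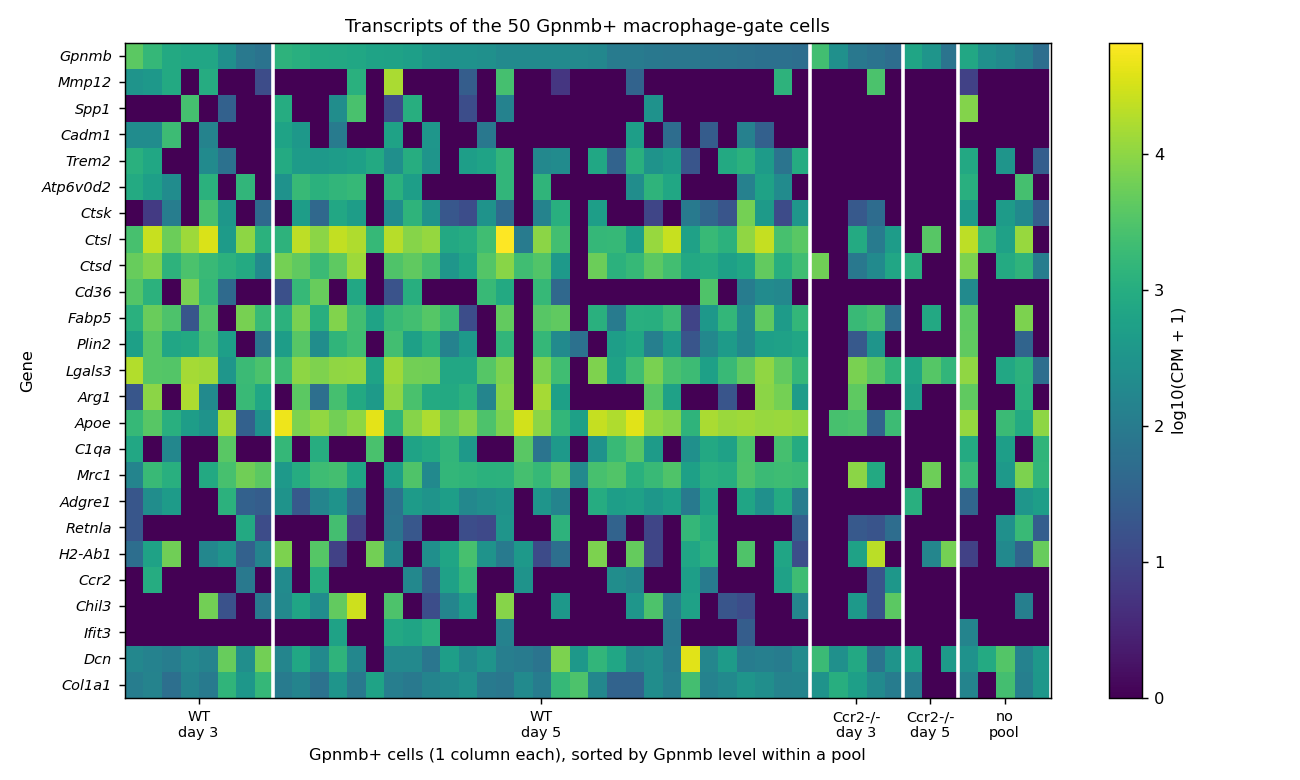
Transcripts of the 50 Gpnmb+ cells, 1 column per cell, grouped by pool and sorted by Gpnmb level, with colour giving log10(CPM + 1). Ctsl, Ctsd and Lgals3 are read in most WT cells, Mmp12 in 12 of 37 and Spp1 in 10 of 37, and the 8 Ccr2-/- columns hold no read of Trem2, Spp1, Cadm1, Atp6v0d2, Cd36 or C1qa.

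At an equal depth of 10000 reads, the share of WT cells with a read was compared between 35 Gpnmb+ and 999 Gpnmb-low cells. Atp6v0d2, a subunit of the proton pump of lysosomes and osteoclasts, was read in 57.1% (39.4 to 73.7) of Gpnmb+ and 7.31% (5.77 to 9.10) of Gpnmb-low cells. Cd36, a scavenger receptor for oxidised lipids, was read in 51.4% (34.0 to 68.6) against 14.9% (12.8 to 17.3). Il7r, a cytokine receptor chain, was read in 37.1% (21.5 to 55.1) against 7.61% (6.04 to 9.43). Among 701 WT cells with at least 3000 CPM of Col1a1, which should lack them, these 3 genes were read in 0.713%, 2.28% and 1.14% of cells. These intervals did not overlap between Gpnmb+ and Gpnmb-low cells. They cover counting error only, since cells are not replicates and both days were put together. Before thinning, day 3 and day 5 gave 8 and 29 Gpnmb+ cells but 579 and 500 Gpnmb-low cells. A difference between days can therefore enter each of these shares. C1qa, a complement gene of mature macrophages, was read in 54.3% (36.7 to 71.2) against 41.2% (38.2 to 44.4), and the MHC class II gene H2-Ab1 in 57.1% (39.4 to 73.7) against 63.7% (60.6 to 66.7), which overlapped. Ccr2 was read in 40% (23.9 to 57.9) of Gpnmb+ and 63.3% (60.2 to 66.3) of Gpnmb-low cells, which did not overlap.

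**Figure D3:**
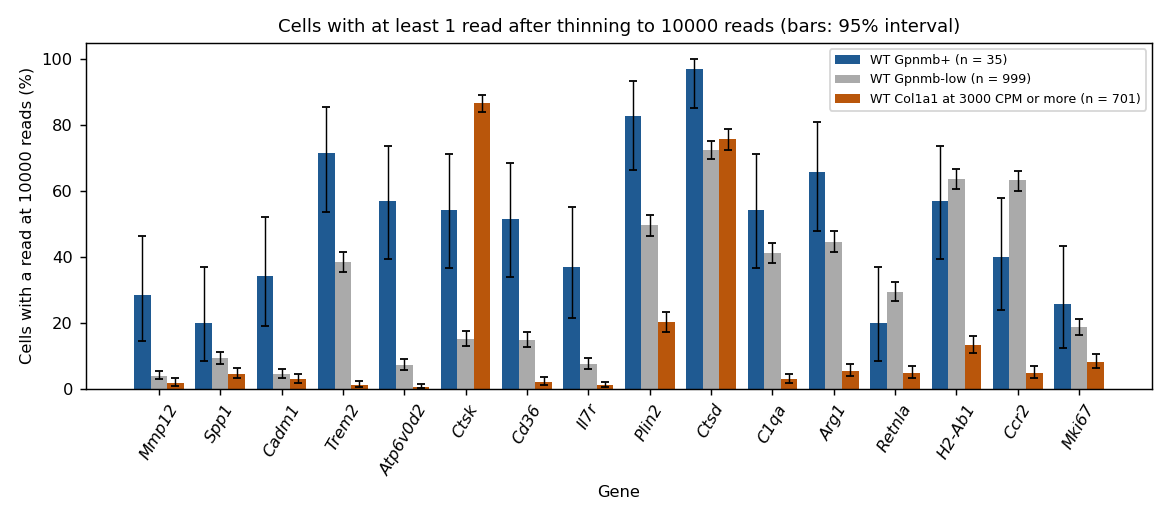
Share of WT cells with at least 1 read of each gene after thinning every cell to 10000 reads, with 95% Clopper-Pearson intervals, in 35 Gpnmb+, 999 Gpnmb-low and 701 Col1a1-high cells. Cells of both days are put together and are not replicates. Atp6v0d2 reaches 57.1% of Gpnmb+ and 7.31% of Gpnmb-low cells, while Ctsk is read in 86.7% of the Col1a1-high cells.

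Reads were then summed per pool and class, and Gpnmb+ was set against Gpnmb-low cells within the WT pools with edgeR, where the pool was a block. This fit had 8 and 29 Gpnmb+ cells and 1 residual degree of freedom, so its p-values rest on a spread shared across genes and do not see how a gene's reads are divided among cells. It called 177 of 15871 genes (1.12%) at an adjusted p below 0.05, of which 120 were higher (0.756%) and 57 lower (0.359%) in Gpnmb+ cells. The label markers Mmp12, Spp1, Cadm1 and Trem2 are among the 120, and the gene lists are counted without them. The median log2 fold change over all tested genes was -0.31. Most of these calls did not survive either of 2 other choices. With all 4 pools, a choice made after the data were seen, 4 genes were called and 1 of them, Retnla, was among the 177. With Gpnmb+ cells chosen on 10000 sampled reads per cell, which kept 27 of the 37 cells and took in 9 others, 10 genes were called and 10 were among the 177.

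Those 10 genes, named after their values were seen, were Atp6v0d2, Cadm1, Cd36, Ctsd, Ctsl, Il7r, Lgals3, Mmp12 and Plin2, all higher, and Retnla, lower. Of these, Mmp12 and Cadm1 are label markers. The 10 genes gave log2 fold changes of 3.93, 3.34, 3.40, 2.34, 2.58, 2.83, 1.62, 4.51 and 2.04 for the first 9 and -2.56 for Retnla in that setting. Retnla, a secreted product of IL-4-driven macrophages, was the gene called by edgeR under each of these 3 choices, with log2 fold changes of -3.99 in WT, -4.92 over 4 pools and -2.56 with cells chosen at 10000 reads. Its level was 46.8 and 387 CPM in Gpnmb+ cells of WT day 3 and day 5, and 2644 and 2210 CPM in Gpnmb-low cells. The other 3 genes called over 4 pools were Ccl2, Ccl8 and Selenop, each lower. In the WT fit their log2 fold changes were -0.15, -0.24 and -0.27, without a call. The fit over 4 pools took in the Ccr2-/- cells, which did not bear out the label.

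A minority of lysosomal genes rose in Gpnmb+ cells. Of 29 tested members of the lysosome list, 9 rose, 1 fell and 19 did not pass the test, where 0.756% of all genes were called higher. The list's median log2 fold change was 0.60 against -0.31 over all genes. With cells chosen at 10000 reads, Atp6v0d2, Ctsd and Ctsl kept their calls and the other 6 did not. Ctsl, the gene of the cysteine protease cathepsin L, had 13698 and 11640 CPM in WT day 3 and day 5 against 1257 and 3039 CPM in Gpnmb-low cells. It was read in 36 of the 37 cells, and its log2 fold change was 2.75 ± 0.20 (SE, adjusted p = 1.01e-36). Ctsd, the aspartic protease cathepsin D, had 3346 and 3180 CPM against 448 and 833 CPM, with a log2 fold change of 2.48 ± 0.25 (adjusted p = 1.54e-20). Both pools of each gene lay above both Gpnmb-low values. Atp6v0d2 had 450 and 635 CPM against 16.8 and 63.6 CPM. Ctsk, a collagen-degrading cathepsin, had 382 and 541 CPM against 29.8 and 91.6 CPM, and was read in 86.7% of thinned cells with 3000 CPM of Col1a1. Psap, which gives the saposins that help degrade sphingolipids, Ctss, Ctsb, Gla and Creg1 also rose, and Ctsc, which activates granule proteases, fell. The calls of Ctsb and Ctsc were lost without cells of 1000 CPM or more of Dcn, a fibroblast gene. None of the 7 genes of the MiT/TFE transcription factors and their regulators, which drive lysosomal genes, passed the test. Mitf had 66.6 CPM in WT Gpnmb+ and 33.0 CPM in Gpnmb-low cells, and Tfec had 142 and 158 CPM.

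Windows at RefSeq start sites of Ctsl and Ctsd are printed because both genes rose together with Gpnmb. These windows hold the 6-letter E-box CACGTG that MiT/TFE factors bind. The window of Gpnmb, the gene that defined the cells, holds the AP-1 motif TGAGTCA. Each window is 300 bases of the sense strand (GRCm38.p6), 250 before the RefSeq start site and 50 from it on. They lie at chr13:64370471-64370770 (minus) for Ctsl, chr7:142387778-142388077 (minus) for Ctsd and chr6:49036268-49036567 (plus) for Gpnmb. In GENCODE, Ctsl runs up to 64370890 on the minus strand, so its window and E-box lie wholly inside the gene. Ctsd runs up to 142388038, a position inside its window. Capitals mark the E-box in Ctsl and Ctsd and AP-1, as its reverse complement, in Gpnmb.
Ctsl: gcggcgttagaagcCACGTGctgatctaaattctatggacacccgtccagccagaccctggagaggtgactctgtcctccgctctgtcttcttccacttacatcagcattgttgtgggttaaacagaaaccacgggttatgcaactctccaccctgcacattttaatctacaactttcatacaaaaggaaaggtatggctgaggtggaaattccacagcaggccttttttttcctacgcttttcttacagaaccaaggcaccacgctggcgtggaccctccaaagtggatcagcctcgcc
Ctsd: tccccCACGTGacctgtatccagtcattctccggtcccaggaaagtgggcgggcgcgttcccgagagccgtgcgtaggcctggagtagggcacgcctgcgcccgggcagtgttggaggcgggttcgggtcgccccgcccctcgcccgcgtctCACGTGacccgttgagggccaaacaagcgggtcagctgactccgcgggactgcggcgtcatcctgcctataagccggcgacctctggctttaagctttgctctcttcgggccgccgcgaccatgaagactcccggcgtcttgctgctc
Gpnmb: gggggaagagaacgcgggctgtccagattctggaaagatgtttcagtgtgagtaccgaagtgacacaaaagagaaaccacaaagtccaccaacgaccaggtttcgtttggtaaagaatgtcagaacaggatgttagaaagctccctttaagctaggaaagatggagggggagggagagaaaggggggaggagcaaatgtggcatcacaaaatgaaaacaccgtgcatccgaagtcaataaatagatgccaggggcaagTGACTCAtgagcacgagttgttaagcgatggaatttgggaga

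On both strands, CACGTG was in 7.15% of 32851 promoter windows, and TGAGTCA in 5.20%. Of the 9 lysosomal genes that rose, 7 matched the table with 8 windows, and 3 windows held CACGTG, those of Ctsd, Ctsl and Gla. That of Ctsl lies inside the gene by its GENCODE position. Among the 119 windows of the 93 matched genes that rose, 8.40% held CACGTG, near the 9.46% of windows of all tested genes. The Gpnmb window was also searched for the M-box of MITF, TCATGTG, and does not contain it. These matches describe letters and not binding.

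Of 19 tested genes of lipid uptake and storage other than Trem2, 8 rose, none fell and 11 did not pass the test, against 0.756% of all genes called higher. The whole list of 20 had a median log2 fold change of 1.18. With cells chosen at 10000 reads the calls of Cd36, Plin2 and Lgals3 were kept. Cd36 had 1411 and 717 CPM in WT day 3 and day 5 against 92.8 and 118 CPM, a log2 fold change of 3.32 ± 0.32 (adjusted p = 1.80e-22). Plin2, which coats lipid droplets, had 1462 and 804 CPM against 180 and 308 CPM, with 2.26 ± 0.30 (adjusted p = 2.56e-11). The fatty acid carrier Fabp5 had 2862 and 2279 CPM against 1323 and 645 CPM. Its relative Fabp4 had 543 and 215 CPM against 31.4 and 67.5 CPM, and of the Fabp4 reads of WT Gpnmb+ cells 47.3% came from 1 cell. Lipa, the lysosomal lipase, Nceh1, which frees stored cholesterol, the tetraspanin Cd9 and the galectin Lgals3 rose too. With all 4 pools in the fit, the log2 fold changes of Cd36, Trem2, Lipa and Nceh1 turned to -0.12, -0.93, -0.51 and -0.54. Apoe, a lipid carrier, had an adjusted p of 0.125 and was read in 37 of 37 WT cells. Of 22 tested efferocytosis genes other than Trem2, 4 rose and none fell, namely Cd36, Lrp1, Anxa1 and Mfge8, against 0.756% of all genes called higher. Without cells of 1000 CPM or more of Dcn, Mfge8 (0.70, adjusted p = 0.9987) and Anxa1 (adjusted p = 0.0658) lost their calls, and over 4 pools Anxa1 turned to -0.22. C1qa, C1qb and C1qc, which bind dying cells, had log2 fold changes of -0.30, -0.31 and -0.38 and did not pass the test.

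The 10 genes with the largest rises were the label markers Mmp12 and Cadm1, and Fam20c, Atp6v0d2, Prss23, Sdc1, Timp3, Cilp, Cd200 and Cd36, with log2 fold changes of 4.75 down to 3.32. They differed in how their reads were divided among cells. Sdc1, a heparan sulfate proteoglycan, had 275 and 87.2 CPM against 9.66 and 11.0 CPM, and 21.8% of its reads came from 1 cell. Fam20c, a kinase of secreted proteins, had 201 and 63.6 CPM against 4.67 and 8.81 CPM. Cd200, which encodes an inhibitory surface ligand, had 140 and 46.4 CPM against 8.02 and 6.76 CPM. The serine protease Prss23, the matrix-bound protease inhibitor Timp3 and the cartilage matrix protein Cilp had 53.7%, 50.1% and 66.3% of their reads in 1 cell. Without cells of 1000 CPM or more of Dcn, a proteoglycan of fibroblasts, which took out 6 WT Gpnmb+ and 56 WT Gpnmb-low cells, the log2 fold changes of Prss23, Timp3 and Cilp turned to -0.57, -0.96 and -2.11 and none passed the test.

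Fibroblast transcripts moved with the Gpnmb+ class. The 7 fibroblast markers, of which none was at 0, summed to 4090 and 4824 CPM in Gpnmb+ cells of WT day 3 and day 5, and to 1171 and 1140 CPM in Gpnmb-low cells. The median cell had 849.5 CPM of them in Gpnmb+ and 843 CPM in Gpnmb-low cells, so the difference lay in a minority. Cells with 1000 CPM or more of Dcn were 6 of 37 Gpnmb+ cells (16.2%) and 56 of 1079 Gpnmb-low cells (5.19%), and these 6 held 94.4% of the Dcn reads of the WT Gpnmb+ cells. Without such cells in either class, a setting chosen after the data were seen, 139 genes were called, of which 112 were among the 177. Mmp2, Sparc and Mfge8, named after their values were seen, were among those lost. The part that fibroblast transcripts had in the remaining calls was not tested.

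**Figure D4:**
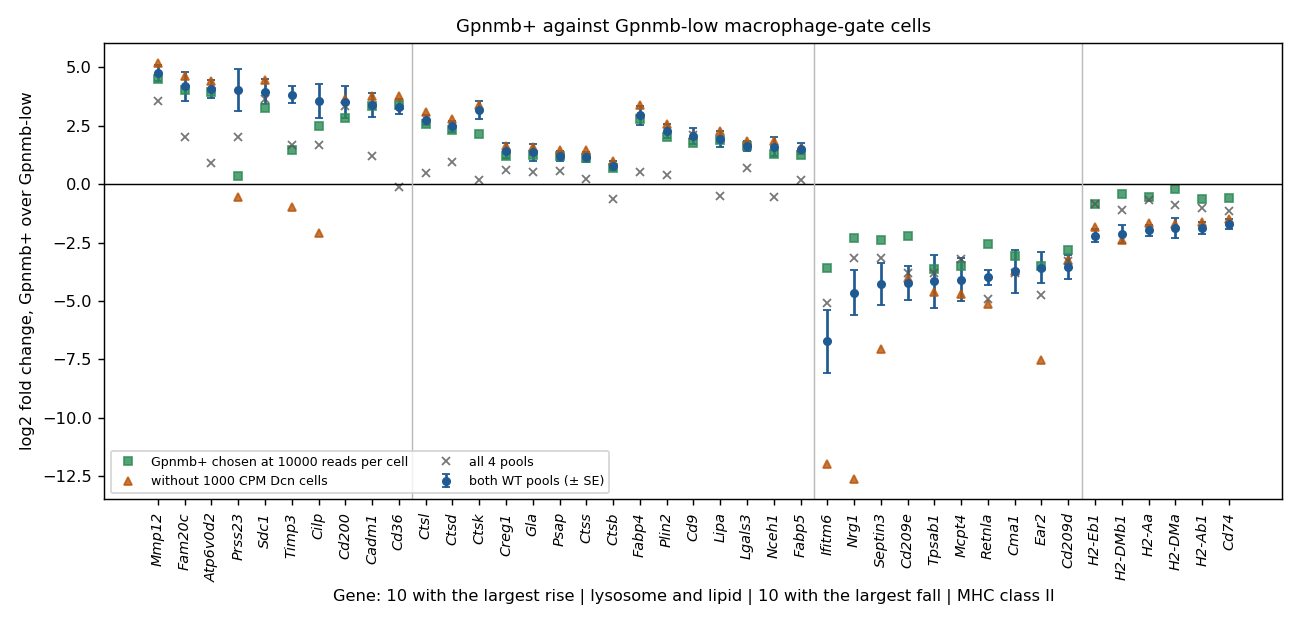
Log2 fold change of named genes in Gpnmb+ over Gpnmb-low macrophage-gate cells, for the WT pools with SE (circles), with Gpnmb+ chosen at 10000 reads per cell (squares), without cells of 1000 CPM of Dcn (triangles) and over 4 pools (crosses). Timp3, Prss23 and Cilp fall below 0 without the Dcn cells, and the MHC class II genes move toward 0 when Gpnmb+ is chosen at 10000 reads.

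Genes of antigen presentation were lower. Of 10 tested MHC class II genes 6 fell and none rose, against 0.359% and 0.756% of all genes. Their median log2 fold change was -2.04, against -0.31 over all genes. Cd74, the invariant chain that guides MHC class II, had 1097 and 1874 CPM in Gpnmb+ cells of WT day 3 and day 5, and 4834 and 4834 CPM in Gpnmb-low cells, a log2 fold change of -1.69 ± 0.22 (adjusted p = 3.62e-11). H2-Ab1 had 581 and 931 CPM against 2795 and 2838 CPM, and H2-Eb1 had 326 and 366 CPM against 1623 and 1696 CPM. Both Gpnmb+ values of each gene lay below both Gpnmb-low values. The cells did not share this evenly, since H2-Ab1 ran from 0 to 7375 CPM among the 37 WT cells. With Gpnmb+ chosen at 10000 reads, none of the 6 passed the test, and their log2 fold changes lay between -0.85 for H2-Eb1 and -0.19 for H2-DMa.

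Genes of alternative activation, the state that IL-4 and IL-13 induce in macrophages, went in both directions. Of 22 tested genes 2 rose and 5 fell, against 0.756% and 0.359% of all genes. Arg1, the arginine-degrading enzyme arginase, had 4264 and 2823 CPM against 1327 and 1015 CPM, a log2 fold change of 1.64 ± 0.23 (adjusted p = 8.35e-10). It was read in 26 of the 37 WT Gpnmb+ cells, at up to 17191 CPM. With Gpnmb+ chosen at 10000 reads its edgeR adjusted p was 0.062. Over 4 pools its log2 fold change was 0.14 (edgeR adjusted p = 0.9535). Chil3, a chitinase-like protein, had 803 and 2669.5 CPM against 694 and 218 CPM, with 53.7% of its reads in 1 cell. Retnla, Mgl2, Clec10a, Ccl24 and Ear2 fell. The lectins Cd209d and Cd209e, relatives of DC-SIGN, were at 0 reads in WT day 3 Gpnmb+ cells, and had 60.6 and 11.6 CPM at day 5 against 276 and 111 CPM in Gpnmb-low cells of that day.

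The 10 genes with the largest falls also held Ifitm6, Nrg1, Septin3, Tpsab1, Mcpt4 and Cma1. Ifitm6, of the interferon-induced transmembrane family, had 1 read in the Gpnmb+ cells of WT and 59.1 CPM in Gpnmb-low cells, where 130 of 1079 cells had a read. The mast cell proteases Tpsab1, Mcpt4 and Cma1 were called lower although 12 of 37 Gpnmb+ cells had reads of Mcpt4 and 12 of Cma1. In Gpnmb-low cells 94.5%, 90.7% and 92.8% of the reads of these 3 genes came from 1 cell.

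Monocyte and resident macrophage genes fell in part, where 0.359% of all genes were called lower and 0.756% higher. Ccr2 had 258 and 265 CPM in Gpnmb+ cells of WT day 3 and day 5 against 905 and 749 CPM, a log2 fold change of -1.59 ± 0.30 (adjusted p = 2.77e-05). Its adjusted p was 0.0677 without the cells of 1000 CPM of Dcn. With Gpnmb+ chosen at 10000 reads, its log2 fold change was -0.63 (edgeR adjusted p = 0.943). In the Gpnmb+ cells of Ccr2-/-, Ccr2 had 8 reads at day 3, in 2 cells, and 0 at day 5. Among 11 monocyte genes, F13a1, a coagulation factor subunit, fell as well, and Chil3 rose. Ly6c2, the gene of Ly6C, had 154 and 249.5 CPM in WT Gpnmb+ and Gpnmb-low cells and an adjusted p of 0.533, with 74.3% of the Gpnmb+ reads in 1 cell. Among 15 genes of resident macrophages F13a1, Cd209d and Cbr2 fell and 12 did not pass the test, among them Selenop with 6929 and 6505 CPM and Mrc1 with 1869 and 3073 CPM.

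Of the remaining lists, 2 of 16 tested inflammatory genes rose, the neutrophil chemokines Cxcl1 and Cxcl2, and 2 fell, Il1b and Ccl4. Over all genes 0.756% were called higher and 0.359% lower, which stands beside each list of this paragraph. Il1b had 25.65 and 303 CPM against 549 and 691 CPM. Among 14 interferon genes Irf7 rose and Ifitm6 fell. Irf7 had 167.5 against 144 CPM at WT day 3, and 400 against 46.9 CPM at WT day 5. Rsad2 had 873 CPM against 67.0 CPM with an adjusted p of 0.0554 and 59.3% of its reads in 1 cell. The iron genes Fth1, Ftl1 and Slc11a1 rose, and Fth1, the ferritin heavy chain, had 7806 and 11519 CPM against 3125 and 4491 CPM. None of the 16 repair factor genes and none of the 18 cell cycle genes passed the test. Igf1 had 604 CPM in WT Gpnmb+ and 436 CPM in Gpnmb-low cells. Of the 13 tested genes of osteoclasts and cell fusion Ctsk, Atp6v0d2 and Cd9 rose, while Acp5 had 71.9 and 16.3 CPM and Dcstamp, which drives fusion, was at 0 in WT Gpnmb+ cells. Of 18 matrix genes other than Mmp12 and Spp1, 6 rose (Mmp2, Mmp13, Adam8, Timp3, Sparc and Thbs1) and Tgfbi fell, against 0.756% and 0.359% of all genes. Without cells of 1000 CPM or more of Dcn, 4 of the 6 lost their calls, Timp3 at -0.96, Sparc at -0.30, Mmp2 at 0.71 and Thbs1 at 1.69 with an adjusted p of 0.0658. Of the Mmp13 reads 99.0% came from 1 cell. Among 10 chemokines of monocytes and eosinophils Pf4 rose and Ccl24 fell. Pf4 had 7664.5 against 1655.5 CPM at WT day 3, but 2206 against 2073 CPM at WT day 5.

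The Gpnmb+ cells were not uniform. Limits of 200 CPM for C1qa and 1000 CPM for Arg1, set after the cells were seen, divided the 37 WT cells into 17 with C1qa only, 9 with Arg1 only, 4 with both and 7 with neither, as a description. Among 1079 WT Gpnmb-low cells these shares were 29.2%, 14.8%, 6.58% and 49.4%, against 45.95%, 24.3%, 10.8% and 18.9% of the Gpnmb+ cells. The 9 cells with Arg1 only, 3 from day 3 and 6 from day 5, had a median Ctsl level of 22001 CPM, and the 17 with C1qa only, 2 from day 3 and 15 from day 5, had 1667 CPM. Each of the 9 had at least 9543 CPM of Ctsl, and 11299 CPM was the highest of the 17. Atp6v0d2 was read in 8 of the 9 and 5 of the 17, and Il7r in 7 of the 9 and 5 of the 17. H2-Ab1 had a median of 11.8 CPM in the former and 686.5 CPM in the latter, and Apoe had 6126 and 14603 CPM. Trem2 was read in 7 of 9 and 14 of 17 cells, with medians of 446 and 387 CPM. The former group had a median of 84666 reads per cell and the latter 64712. Their median Gpnmb levels were 592 and 198 CPM. Levels of these genes were not compared by this split in Gpnmb-low cells.

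**Figure D5:**
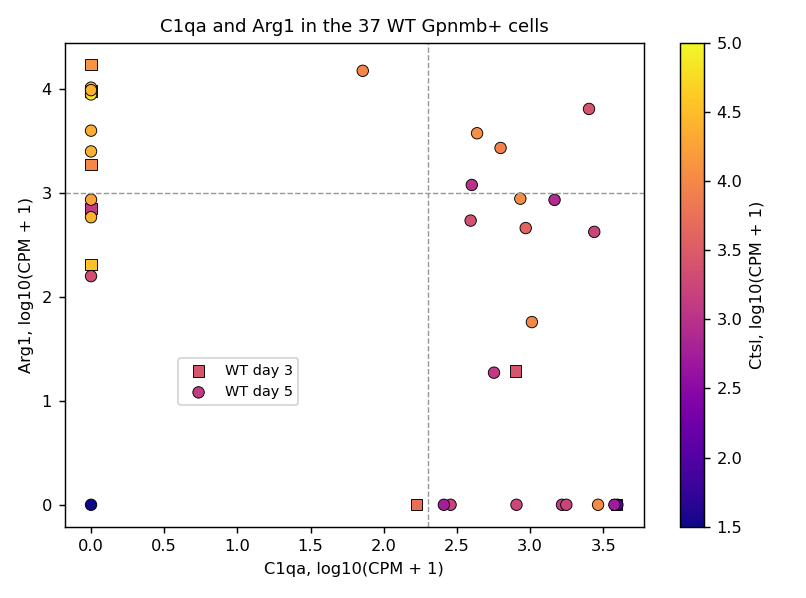
C1qa against Arg1 in the 37 WT Gpnmb+ cells, both as log10(CPM + 1), with squares for day 3, circles for day 5 and colour for Ctsl. Dashed lines mark 200 CPM of C1qa and 1000 CPM of Arg1, and the 9 cells at upper left, with Arg1 only, have a median Ctsl level of 22001 CPM.

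Within the class, cells were set side by side by their Gpnmb level. Among WT cells, 21 had 200 CPM or more and 16 had less, at median depths of 79386 and 75978 reads. After thinning to 10000 reads, Mmp12 was read in 8 of 19 and 2 of 16 of them, Cadm1 in 9 of 19 and 3 of 16, Cd36 in 13 of 19 and 5 of 16, and the proliferation gene Mki67 in 2 of 19 and 7 of 16. The intervals of each of these 4 shares overlapped between the groups, which were made on the rule's own measure and were not tested.

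Gpnmb+ cells were lastly set against other macrophage-gate cells of the WT pools. The 24 and 23 cells of WT day 3 and day 5 with at least 100 CPM of Lyve1, a gene of perivascular resident macrophages, gave 0 calls among 9609 genes (0%) with edgeR, while 625 genes had an unadjusted p below 0.05 and DESeq2 called 156. Fabp5 had 2862 and 2279 CPM in Gpnmb+ cells against 129 and 58.1 CPM in these cells (adjusted p = 0.103), and Retnla had 46.8 and 387 CPM against 6636 and 6681 CPM (adjusted p = 0.205). Cells with at least 50 CPM of Pdcd1lg2, the gene of PD-L2, gave 3 calls among 11848 genes (0.0253%), the label marker Mmp12, Fabp4 and Timp3, all higher in Gpnmb+ cells. Mmp12 had 2.27 and 25.0 CPM in the Pdcd1lg2+ cells. Cells with at least 500 CPM of Ly6c2, as in classical monocytes, gave 37 calls among 10172 genes (0.364%), 23 higher and 14 lower, or 12 higher and 13 lower with library sizes in place of TMM scaling. Atp6v0d2 had 2.40 CPM and 0 in the Ly6c2-high cells, and Ifitm6 had 356 and 184 CPM. Ccr9 and Bcl11a, genes of plasmacytoid dendritic cells among others, were at 0 in WT Gpnmb+ cells and had 134 and 80.5 CPM in Ly6c2-high cells. The Ly6c2-high class can therefore hold cells other than monocytes, and its lower calls are not read as a difference from monocytes. The counts of these 3 comparisons moved by over 1.5 times under 6, 12 and 9 other settings, and Ly6c2-high gave 0 calls with edgeR, and 693 genes of an unadjusted p below 0.05, without cells that Scrublet called doublets.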

How the data were processed

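Single cells of mouse ear skin were measured by TAS-Seq on the BD Rhapsody platform, as 1 cDNA and 1 hashtag library. The deposited counts were whole reads per gene and barcode, and the authors had trimmed reads with Cutadapt and aligned them with Bowtie2 per the submitters' processing notes, which name GRCm38.p6. No molecular identifiers entered the counts, so PCR copies remained in them and a cell's CPM can rest on few molecules. A barcode was given to a pool when the largest of its 4 hashtag counts, each divided by its column's total, was at least 3 times the next. The other 9 hashtag columns were not used. One barcode held 29.7% of the reads of 1 hashtag, so totals over the barcodes of the matrix were an alternative. Depth ran from 3113 to 713596 reads per cell.

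Reads were summed per pool and class and tested in R 4.3.3 with edgeR 4.0.16 (quasi-likelihood test, TMM, filterByExpr, Benjamini-Hochberg, threshold 0.05), with the pool as a block and the gate genes left out, and the script was tested on simulated data. The planned minimum of 10 cells per class left 1 pool, WT day 5, so both WT pools were fitted instead, chosen after the cell numbers were seen. For the same reason the planned tests of genotype, day and their interaction in Gpnmb+ cells could not be made. DESeq2 1.42.0 was an alternative. Shares have Clopper-Pearson intervals of 95% (SciPy 1.17.1), and floors are 3 reads. Doublets were called with Scrublet in Scanpy 1.11.5, which marked 104 of 8359 cells, 4 of them Gpnmb+, and were kept except in 1 alternative.

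Named genes were the 5 label markers, the 10 with the largest change in each direction past the threshold, at 50 CPM or more in a class and changed the same way in each pool (5 for the other comparisons), and from each gene list the 4 of highest level and those against the list's majority. Members and lists were chosen with earlier results of these data known. Gene positions are from GENCODE on GRCm38, which need not be the release that was aligned to.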

Additional observations from a re-analysis of the deposited data

How the results depend on the processing

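The difference in share of macrophage-gate cells ran from -0.427 (without WT day 5, where it reversed) to 3.69 points over the leave-one-out settings, and that of all cells from 0.327 to 2.49 points. Leaving out a WT pool from the gene tests left 1 pool and no residual degree of freedom, so no value was made. No pairing by animal was possible because the labels give no replicate numbers. The pool was a block in every fit, so the classes were compared within each pool.

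Against Gpnmb-low cells, 177 genes were called, 4 over all 4 pools, 107 with Gpnmb at 100 CPM or more and 10 with cells chosen at 10000 reads, and from 131 to 188 under the other 12 settings. Against Lyve1-high cells (0 called), DESeq2 gave 156, no filter 183, all 4 pools 23, Gpnmb at 100 CPM 31, stricter Col1a1 and S100a8/9 limits 20 and no cells of 1000 CPM of Dcn 32. Against Pdcd1lg2+ cells (3 called), these 6 settings gave 150, 176, 6, 76, 109 and 127, and a hashtag ratio of 10 gave 1, at least 3 Gpnmb reads 5, cells of 20000 reads 9, no Scrublet doublets 34, no melanocyte marker cells 16 and matrix hashtag totals 5. Against Ly6c2-high cells (37 called), DESeq2 gave 277, no filter 230, all 4 pools 17, cells of 20000 reads 23, cells chosen at 10000 reads 4, no Scrublet doublets 0 (693 unadjusted), no melanocyte marker cells 120, stricter limits 145 and no Dcn cells 124. The cause of these moves was not tested.

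Of 70 named genes called against Gpnmb-low cells, all 70 kept direction and call with library sizes, with 3 Gpnmb reads, with cells of 20000 reads, with 10 hashtag reads and with matrix hashtag totals. The call held for 42 with DESeq2, 9 with cells chosen at 10000 reads and 1 over all 4 pools. Over all 4 pools the log2 fold change reversed for Cd36 (-0.12), Spp1 (-0.41), Trem2 (-0.93), Lipa (-0.51), Nceh1 (-0.54), Ctsb (-0.63), Anxa1 (-0.22), Cxcl1 (-0.71) and Pf4 (-1.08). It reversed with Gpnmb at 100 CPM for Timp3 (-1.61) and Cilp (-1.29), with stricter limits for Prss23 (-0.59), Timp3 (-1.29) and Sparc (-0.081), and without Dcn cells for Prss23 (-0.57), Timp3 (-0.96), Cilp (-2.11) and Sparc (-0.30). The settings with all 4 pools, matrix hashtag totals and no Dcn cells were chosen after seeing the data.

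The 3 and 5 Gpnmb+ cells of the Ccr2-/- pools held 39397 and 136561 reads in all, where 3 reads are 76.2 and 22.0 CPM, so lower levels were not detectable there.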

Other observations

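A further 5 Gpnmb+ cells were given to no pool and entered no comparison. Their Gpnmb levels were 782, 261, 192, 121 and 53.8 CPM. The first, with 129229 reads, had 8272 CPM of Spp1, 797 CPM of Trem2, 1122 CPM of Atp6v0d2 and 21543 CPM of Ctsl. The fourth had 2453 CPM of Atp6v0d2 and 12094 CPM of Ctsl without a read of Mmp12, Spp1, Cadm1 or Trem2, and 2 of the 5 had none of these 4 genes.

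In the Ccr2-/- Gpnmb+ cells the MHC class II gene H2-Ab1 was at 9505 CPM at day 3, with 97.8% of its reads in 1 cell, and at 2386 CPM at day 5, with 98.9% in 1 cell. Il1b, the gene of the cytokine interleukin-1 beta, was at 688 and 7158 CPM in these pools and at 25.65 and 303 CPM in WT Gpnmb+ cells. The summed neutrophil markers of these Ccr2-/- cells were 476 and 1421 CPM, against 255 and 241 CPM in Ccr2-/- Gpnmb-low cells. The 5 and 3 cells held 136561 and 39397 reads in all, so 1 cell can set a level. No test was made on them, and no difference between genotypes is read from these values.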
